A study of Homo sapiens with 24 samples.

Results

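Gene expression was compared between arrays with high and low levels of mitosis genes among 14 arrays in which the stress gene DDIT4 was low. The cells were of the human hepatoma line Huh7.5.1. The study treated them with silymarin, a flavonolignan mixture from milk thistle, or with DMSO, its solvent, and hybridised total RNA of 24 samples to Affymetrix Human Gene 1.0 ST arrays after 4, 8 or 24 h. All sample titles carry the word novirus, no source used here gives the silymarin dose, and none states that replicates are separate cultures, so p-values measure only the spread between samples. Of the 24 arrays, 14 had DDIT4 under 9.0 on the log2 scale. These 14 arrays were chosen by their DDIT4 value and ranked by the mean log2 value of 3 mitosis genes, CCNB1, CENPF and NEK2, called the mitotic score here. The 5 highest arrays are called mitosis-high and the 5 lowest mitosis-low, 4 arrays lay in between, and the 10 arrays with DDIT4 at 9.0 or above were not used in the sorting. The arrays were sorted by measured values, so the sides are not groups of the study.

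The mitosis-high side held, in falling order of score, silymarin 4 h replicate 3, DMSO 24 h replicate 4, DMSO 24 h replicate 1, DMSO 4 h replicate 3 and silymarin 24 h replicate 3. The mitosis-low side held DMSO 24 h replicate 5, DMSO 24 h replicate 2, silymarin 24 h replicate 2, DMSO 8 h replicate 2 and silymarin 8 h replicate 2. Values of single arrays are given below in this order. Both sides thus had 3 DMSO and 2 silymarin arrays. The time points differed, with 2 arrays at 4 h and 3 at 24 h on the mitosis-high side and 2 arrays at 8 h and 3 at 24 h on the mitosis-low side. The sides shared no replicate number, and 4 of the 5 mitosis-low arrays carry the number 2. Mitotic level and replicate number therefore cannot be told apart between the sides.

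A dividing cell copies its DNA in S phase, when replication histones are made, and then builds up the mitosis genes in G2 so that their transcripts peak as it enters mitosis. Cyclin B1, the product of CCNB1, drives entry into mitosis together with the kinase CDK1, CENPF binds the outer kinetochore, and NEK2 is a kinase that separates centrosomes. Many mitosis genes share a regulation in which the DREAM complex holds them off in resting cells and MYBL2 and FOXM1 turn them on in G2. This control acts through a promoter element called the CHR, whose core reads TTTGAA, often beside CCAAT boxes bound by NF-Y. In a bulk sample, more cells near mitosis and more of these transcripts per cell cannot be told apart.

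The promoters of 5 mitosis genes are shown because these genes had large differences between the sides or belong to the sorting genes, and because their windows hold the letters of this element. Each window runs from 250 bases before to 50 bases after the gene's first listed start, 5′ to 3′ on the gene's strand, from RefSeq on GRCh38.p14. Capitals mark TTTGAA or CCAAT on either strand, so that TTCAAA and ATTGG are the same letters read from the other strand. The windows are chr14:55191536-55191835 on the minus strand for DLGAP5, chr1:197146620-197146919 on the minus strand for ASPM, chr10:89701340-89701639 on the plus strand for KIF20B, chr1:200620702-200621001 on the minus strand for KIF14 and chr1:214602945-214603244 on the plus strand for CENPF.
DLGAP5: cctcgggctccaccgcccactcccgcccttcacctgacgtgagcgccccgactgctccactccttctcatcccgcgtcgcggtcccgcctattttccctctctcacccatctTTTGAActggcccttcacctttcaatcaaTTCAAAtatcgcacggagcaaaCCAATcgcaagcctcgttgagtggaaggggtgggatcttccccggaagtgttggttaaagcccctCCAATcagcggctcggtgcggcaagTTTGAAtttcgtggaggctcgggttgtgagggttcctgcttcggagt
ASPM: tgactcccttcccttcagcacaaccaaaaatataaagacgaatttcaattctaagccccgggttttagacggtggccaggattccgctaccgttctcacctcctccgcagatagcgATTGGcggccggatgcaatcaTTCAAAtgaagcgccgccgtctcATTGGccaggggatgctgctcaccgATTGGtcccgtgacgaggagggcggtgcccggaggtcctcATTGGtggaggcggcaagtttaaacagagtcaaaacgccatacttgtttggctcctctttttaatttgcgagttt
KIF20B: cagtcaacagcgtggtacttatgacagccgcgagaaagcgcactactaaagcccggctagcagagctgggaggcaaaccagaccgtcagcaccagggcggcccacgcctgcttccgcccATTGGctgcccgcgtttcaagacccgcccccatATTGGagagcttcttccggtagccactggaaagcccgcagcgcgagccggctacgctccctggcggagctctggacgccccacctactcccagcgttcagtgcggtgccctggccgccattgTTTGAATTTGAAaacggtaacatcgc
KIF14: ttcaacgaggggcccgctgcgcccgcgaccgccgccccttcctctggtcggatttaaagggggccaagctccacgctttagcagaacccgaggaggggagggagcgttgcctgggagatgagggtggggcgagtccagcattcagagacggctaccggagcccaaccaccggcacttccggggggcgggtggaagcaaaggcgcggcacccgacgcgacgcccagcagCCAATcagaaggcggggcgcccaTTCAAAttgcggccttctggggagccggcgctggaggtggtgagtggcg
CENPF: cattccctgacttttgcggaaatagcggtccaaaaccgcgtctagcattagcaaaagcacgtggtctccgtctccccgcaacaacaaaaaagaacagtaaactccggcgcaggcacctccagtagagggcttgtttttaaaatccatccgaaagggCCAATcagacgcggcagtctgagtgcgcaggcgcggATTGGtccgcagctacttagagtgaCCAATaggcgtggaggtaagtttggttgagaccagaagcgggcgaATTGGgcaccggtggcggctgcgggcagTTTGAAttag

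The DLGAP5 window held 3 TTTGAA and 2 CCAAT matches, and those of ASPM and CENPF each held 1 and 4. Among the mitosis genes of the lists described below, 123 of 146 had a window in the table, and 61 of these (49.6%) held TTTGAA, beside 11.9% of the 14119 tested genes with a window. CCAAT was in 63.4% of the mitosis windows and in 36.3% of all windows, and both letters together in 35.8% and 4.85%. The share with TTTGAA was 12 of 24 in the mitosis genes whose arrays did not overlap between the sides and 49 of 99 in the other mitosis genes. A match is a description of letters and not of a bound site.

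The mitotic score was 10.64 ± 0.03 (SD, n = 5) on the mitosis-high side and 10.41 ± 0.09 (SD, n = 5) on the mitosis-low side. These values chose the arrays, so they describe the split and were not tested. CCNB1 read 10.75, 10.64, 10.62, 10.70 and 10.64 in the mitosis-high arrays, against 10.47, 10.38, 10.41, 10.23 and 10.32 in the mitosis-low arrays. CENPF read 11.32, 11.14, 11.11, 11.12 and 11.21 in the mitosis-high arrays, against 10.97, 11.02, 11.08, 10.88 and 10.88 in the mitosis-low arrays, and neither of these genes overlapped between the sides. NEK2 read 9.99, 10.15, 10.20, 10.04 and 9.94 in the mitosis-high arrays, against 9.99, 10.02, 9.91, 9.83 and 9.71 in the mitosis-low arrays, so its sides did overlap. At the upper border the last mitosis-high array scored 10.597 and the next array 10.589. At the lower border the lowest array in between scored 10.497 and the first mitosis-low array 10.478. For DDIT4, the highest of the 14 arrays read 8.35 and the lowest of the 10 others 9.67, and among the 14 arrays the mitosis-high side read 7.52 to 8.35 and the mitosis-low side 7.74 to 8.28.

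**Figure D1:**
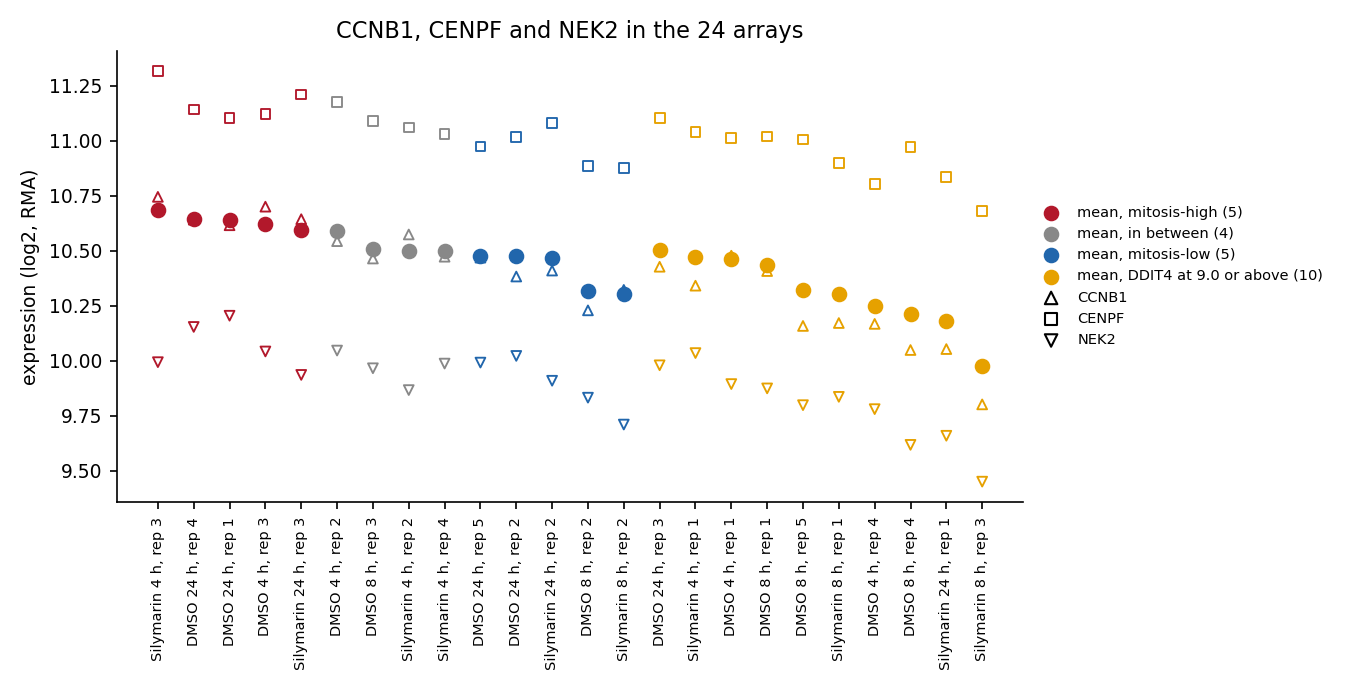
Expression of CCNB1, CENPF and NEK2 (open symbols) and their mean, the mitotic score (filled circles), in log2 units in each of the 24 arrays. The arrays run from the highest to the lowest score within the 14 low-DDIT4 arrays and then within the 10 others, and the 5 mitosis-high arrays score between 10.60 and 10.69, above the 5 mitosis-low arrays at 10.30 to 10.48.

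Across the series the array medians lay between 7.04 and 7.18 log2, and 18271 genes were tested after the 3 sorting genes were left out. In the 14 low-DDIT4 arrays the hepatocyte markers ALB and APOA1 averaged 13.31 and 11.43. Of the other cell types, the highest markers averaged 7.09 for endothelial cells (PECAM1), 7.79 for fibroblasts (COL1A1) and 8.45 for leukocytes (CD68), while the leukocyte marker PTPRC averaged 4.36. The bile duct marker SOX9 averaged 10.47 and KRT7 6.81. The mean of the fixed hepatocyte markers was 12.49 to 12.56 in mitosis-high arrays and 12.50 to 12.56 in mitosis-low arrays. Array medians were 7.06 to 7.12 on the mitosis-high side and 7.11 to 7.17 on the mitosis-low side. A fit with re-centred arrays is among the alternatives below, and the part of the medians in the results was not tested further.

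No single gene passed the test between the sides. With limma and Benjamini-Hochberg adjustment over 18271 genes, 0 genes were called higher and 0 lower (0% each), and the smallest adjusted p was 0.0803. At an unadjusted p under 0.05 there were 1084 genes higher and 1299 lower. The 5 and 5 arrays did not overlap in 248 genes that were higher in mitosis-high arrays (1.36% of the genes tested) and in 320 that were lower (1.75%). Over all genes the difference, mitosis-high minus mitosis-low, lay above 0 in 43.4%, with a median of -0.02. Brighter genes lay higher: of the 6117 genes with a mean of at least 9 log2, 58.2% were above 0 and 2.62% were higher without overlap, beside 35.9% above 0 among the 12154 dimmer genes. The gene lists below are therefore described by counts, medians and values of single arrays, none of which is a passed test.

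Mitosis genes other than the sorting genes were higher in the mitosis-high arrays as a body. Of 146 measured members of 8 lists, 136 lay above 0 and 10 below, with a median difference of 0.13 log2. In 26 of them the arrays did not overlap, all 26 higher in mitosis-high arrays. These genes belong to the same programme as the sorting genes, so their direction is not independent of the sorting. Most are bright genes, and of the 127 members with a mean of at least 9 log2, 119 lay above 0. The mean over all members was 10.28 to 10.41 in the mitosis-high arrays and 10.17 to 10.25 in the mitosis-low arrays, without overlap. By list, the means of the sides overlapped for cyclins, kinetochore, transcription regulators and nuclear envelope. DMSO 8 h replicate 3, in between with a score of 10.51, lay under every mitosis-low array in several list means. These were cyclins (10.37), spindle checkpoint (9.98), kinetochore (9.55), chromosome structure (10.20) and transcription regulators (9.41). For kinesins (10.06) and the anaphase promoting complex (10.285) it lay above the lowest mitosis-low array.

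By role, the motors and fibres of the spindle had the highest median of the 8 lists. All 20 kinesin and spindle genes lay above 0, with a median of 0.20, and 8 did not overlap between the sides. KIF14, a kinesin needed at the end of cell division, read 9.89, 9.78, 9.77, 9.76 and 9.72 in the mitosis-high arrays, against 9.44, 9.57, 9.53, 9.40 and 9.10 in the mitosis-low arrays. Every mitosis-high array was above every mitosis-low array in this gene, with a difference of 0.38 (SE 0.08) with limma's adjusted p = 0.113. DLGAP5, which stabilises the microtubules that reach kinetochores, read 10.66, 10.56, 10.55, 10.48 and 10.45 in the mitosis-high arrays, against 10.31, 10.33, 10.26, 10.15 and 10.01 in the mitosis-low arrays. Its difference was 0.33 (SE 0.07), with adjusted p = 0.113, and the 2 mitosis-low arrays of the 8 h time point were the lowest of the 10. KIF20B, a kinesin of late cytokinesis, read 8.58, 8.50, 8.38, 8.44 and 8.39 in the mitosis-high arrays, against 8.22, 8.26, 8.02, 8.19 and 8.12 in the mitosis-low arrays, again without overlap. ASPM, a protein of the spindle poles named after its values were seen, read 11.04, 10.81, 10.80, 10.79 and 10.98 in the mitosis-high arrays, against 10.61, 10.73, 10.69, 10.50 and 10.42 in the mitosis-low arrays. Its difference was 0.30 (SE 0.07), and KIF20A, a kinesin of the spindle midzone, differed by 0.23 (SE 0.05).

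At the kinetochore and centromere, where chromosomes hold the spindle, 19 of 20 measured genes lay above 0, with a median of 0.19, and 5 did not overlap. CENPE, a motor that carries chromosomes to the spindle equator, read 9.69, 9.60, 9.67, 9.60 and 9.42 in the mitosis-high arrays, against 9.41, 9.29, 9.07, 9.34 and 9.04 in the mitosis-low arrays. The highest mitosis-low array, DMSO 24 h replicate 5, lay just under the lowest mitosis-high array, silymarin 24 h replicate 3, and the arrays in between ran from 8.92 to 9.49. CENPK, of the inner kinetochore, read 10.80, 10.62, 10.60, 10.65 and 10.72 in the mitosis-high arrays, against 10.42, 10.50, 10.31, 10.44 and 10.27 in the mitosis-low arrays, a difference of 0.29 (SE 0.06). NUF2, part of the complex that grips microtubules, differed by 0.24 (SE 0.05), and OIP5, which helps to load the centromeric histone, by 0.23 (SE 0.05), both without overlap. Of the spindle checkpoint, 11 of 12 genes lay above 0, with a median of 0.14. MAD2L1, the checkpoint protein that holds back anaphase, differed by 0.28 (SE 0.07) and TTK, a checkpoint kinase, by 0.24 (SE 0.06), and only MAD2L1 of this list did not overlap.

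Cyclins and mitotic kinases had 15 of 17 genes above 0 and a median of 0.10. CDC25C, the phosphatase that switches on CDK1, read 9.12, 9.04, 9.03, 9.17 and 8.92 in the mitosis-high arrays, against 8.84, 8.90, 8.81, 8.72 and 8.68 in the mitosis-low arrays. No mitosis-low array reached a mitosis-high one in this gene, and the difference was 0.27 (SE 0.06). CDK1 itself read 10.36, 10.32, 10.24, 10.31 and 10.36 in the mitosis-high arrays, against 10.26, 10.05, 10.02, 10.08 and 9.98 in the mitosis-low arrays. DMSO 24 h replicate 5 reached above the lowest mitosis-high array, so CDK1 overlapped, with a difference of 0.24 (SE 0.06). TPX2, which activates the kinase Aurora A, differed by 0.19 (SE 0.05) without overlap and CCNA2, cyclin A2, by 0.18 (SE 0.05) with overlap. WEE1 and PKMYT1, the kinases that hold CDK1 inactive, were the 2 members of this list below 0 and are named for that, with values known. Neither was lower without overlap or had an unadjusted p under 0.05 with limma.

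Genes of chromosome structure and the passenger complex were above 0 in 18 of 18, with a median of 0.17 and 4 without overlap. NCAPG, a subunit of condensin, differed by 0.21 (SE 0.05), PTTG1, the securin that guards sister chromatids, by 0.26 (SE 0.07), and BIRC5, survivin of the passenger complex, by 0.24 (SE 0.06). Of these, BIRC5 overlapped between the sides. For the anaphase promoting complex and cytokinesis, 20 of 21 lay above 0, with a median of 0.14 and 3 without overlap. ARHGAP11A, a gene of the cytokinesis list, read 10.13, 9.95, 9.97, 9.86 and 9.98 in the mitosis-high arrays, against 9.66, 9.70, 9.67, 9.65 and 9.65 in the mitosis-low arrays. The mitosis-low arrays lay close together here, and the difference of 0.31 (SE 0.05) had adjusted p = 0.0846. ANLN, the scaffold of the contractile ring, read 11.52, 11.51, 11.55, 11.44 and 11.45 in the mitosis-high arrays, against 11.36, 11.26, 11.24, 11.33 and 11.23 in the mitosis-low arrays, also without overlap. The kinase MELK differed by 0.19 (SE 0.05).

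Regulators of these genes had a small median difference, with larger values for some members. Of 16 transcription regulators of mitosis, 12 lay above 0, with a median of 0.08, and 0 did not overlap. FOXM1 averaged 11.05 ± 0.05 in the mitosis-high arrays and 10.94 ± 0.03 in the mitosis-low arrays (SD, n = 5 each), a difference of 0.10 (SE 0.04). LIN37, LIN52, TFDP2 and E2F4, components of the DREAM complex or their partners, were the 4 below 0, also named with values known. None of these 4 had an unadjusted p under 0.05 with limma. E2F5 and RBL1, of the same complex, lay above 0, at 0.25 (SE 0.09) and 0.20 (SE 0.08), both with overlap. Of 22 genes of the nuclear envelope and chromatin of dividing cells, 21 lay above 0, with a median of 0.09 and 3 without overlap. HELLS, a chromatin remodeller, differed by 0.29 (SE 0.07), HMGB2, a chromatin protein, by 0.21 (SE 0.05) and LBR, the lamin B receptor, by 0.14 (SE 0.05).

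**Figure D2:**
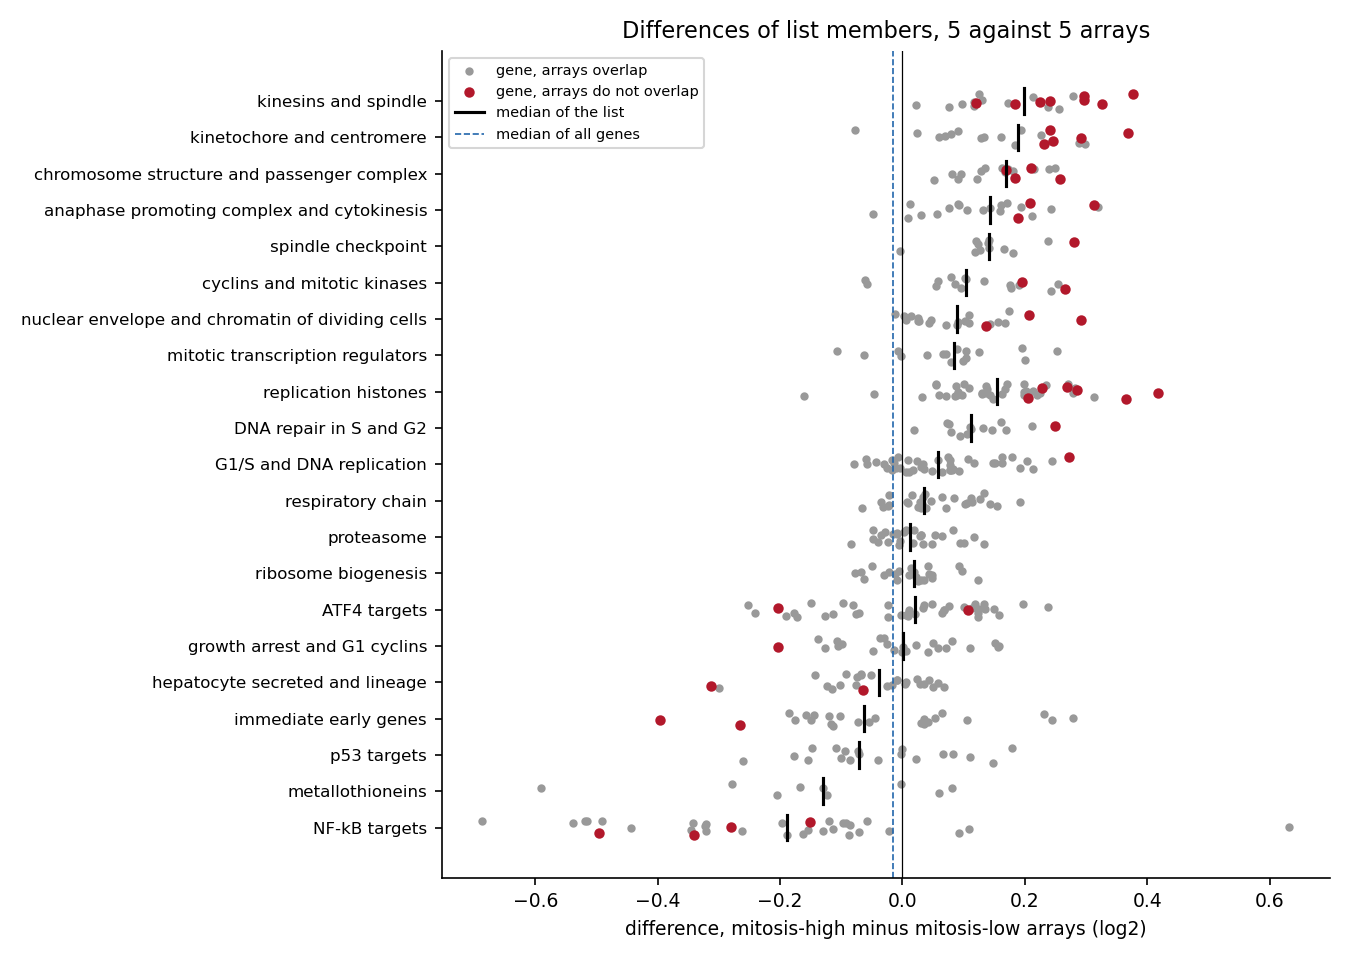
Difference in log2 expression, mitosis-high minus mitosis-low arrays (5 against 5), of every measured member of 21 gene lists. Each point is a gene, red where the arrays of the sides do not overlap, black bars are list medians and the dashed line is the median of all genes. Kinesin and spindle genes lie furthest right at a median of 0.20 and NF-kB targets furthest left at -0.19.

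Among S phase genes, replication histones were above 0 in 40 of 42 measured genes, with a median of 0.16, and 6 did not overlap. The histone list mean was 9.57 to 9.75 in the mitosis-high arrays and 9.45 to 9.62 in the mitosis-low arrays, with overlap. H2BC11, a histone H2B gene, read 8.16, 7.86, 7.72, 7.89 and 7.90 in the mitosis-high arrays, against 7.47, 7.62, 7.48, 7.49 and 7.38 in the mitosis-low arrays, a difference of 0.42 (SE 0.07) with adjusted p = 0.102. H4C8, a histone H4 gene, differed by 0.36 (SE 0.08). The linker histone gene H1-2 read 10.48, 10.40, 10.26, 10.39 and 10.33 in the mitosis-high arrays, against 10.19, 10.11, 10.02, 10.14 and 10.05 in the mitosis-low arrays. The lowest mitosis-high array lay above every mitosis-low array in these 3 genes. Histone genes are near-identical copies of each other, and probe sets of one can bind transcripts of another, so values of single histone genes are uncertain.

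The genes that license and copy DNA had a smaller median difference. Of 43 measured genes of G1/S and DNA replication, 31 lay above 0, with a median of 0.06, and 1 did not overlap. That gene was POLA1, the catalytic subunit of DNA polymerase alpha, which read 9.15, 8.90, 8.76, 8.84 and 9.10 in the mitosis-high arrays, against 8.63, 8.71, 8.75, 8.66 and 8.63 in the mitosis-low arrays. RRM2, a subunit of the enzyme that makes deoxynucleotides, differed by 0.24 (SE 0.07) with overlap. Among the 12 members below 0 were CDT1, E2F1 and E2F2, at -0.08, -0.04 and -0.06, named here after their values were seen. Early G1/S genes were not compared as a group with the other members. All 14 measured genes of DNA repair in S and G2 lay above 0, with a median of 0.11, and RAD54B, a partner in recombination, differed by 0.25 (SE 0.06) without overlap.

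Targets of NF-kB, the transcription factor of inflammation, were lower in the mitosis-high arrays. Of 33 measured members, 30 lay below 0 and 3 above, with a median of -0.19 log2, and 4 were lower without overlap (ICAM1, RELB, IRF1 and CD83, the last named with its values known). The list mean was 7.88 to 8.24 in the mitosis-high arrays and 8.14 to 8.42 in the mitosis-low arrays, so the sides overlapped. All 10 members with a mean of at least 9 log2 lay below 0, and 20 of the 23 dimmer ones. This direction was lost with replicate number as a block over the 14 low-DDIT4 arrays, where 15 of 33 slopes against the score lay above 0, beside 6 of 33 without the block. ICAM1, an adhesion molecule for leukocytes, read 10.80, 10.98, 10.38, 10.39 and 10.90 in the mitosis-high arrays, against 11.39, 11.10, 11.23, 11.05 and 11.16 in the mitosis-low arrays. Its difference was -0.50 (SE 0.12) with adjusted p = 0.143, and the 4 arrays in between read 10.93 to 11.19. RELB, a subunit of NF-kB, read 8.39, 8.53, 8.27, 8.20 and 8.27 in the mitosis-high arrays, against 8.78, 8.64, 8.66, 8.59 and 8.68 in the mitosis-low arrays. Here the arrays in between, at 8.62 to 8.72, lay with the mitosis-low arrays. IRF1, a transcription factor that NF-kB and interferon induce, read 7.81, 7.92, 7.84, 7.71 and 7.69 in the mitosis-high arrays, against 8.19, 7.99, 8.17, 7.94 and 8.07 in the mitosis-low arrays.

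Feedback and effector genes of NF-kB had differences of similar size but overlapped. TNFAIP3, also called A20, which shuts the pathway off, read 8.71, 9.17, 8.74, 8.56 and 8.85 in the mitosis-high arrays, against 9.73, 9.19, 9.47, 9.07 and 9.15 in the mitosis-low arrays. It, too, was picked with its values in view, and the mitosis-high array DMSO 24 h replicate 4 lay above 2 mitosis-low arrays. TNFAIP2 read 8.38, 8.71, 8.55, 8.30 and 8.55 in the mitosis-high arrays, against 9.30, 8.98, 8.90, 8.82 and 8.70 in the mitosis-low arrays, with overlap and a difference of -0.44 (SE 0.10). The chemokine CXCL10, also named afterwards, read 7.84, 8.66, 7.57, 7.45 and 7.73 in the mitosis-high arrays, against 9.51, 8.51, 8.48, 8.28 and 7.90 in the mitosis-low arrays. Its difference of -0.69 (SE 0.27) was the most negative of the list, but the mitosis-high array DMSO 24 h replicate 4 lay above 4 of the 5 mitosis-low arrays. The 3 members above 0 were IL18, a cytokine, at 0.63 (SE 0.40), IL1B and PTX3, all with overlap and named with their values known. The promoter windows of IRF1 (chr5:132490724-132491023 on the minus strand) and TNFAIP3 (chr6:137867009-137867308 on the plus strand) show the letters of the kappaB motif, the sequence NF-kB binds, in capitals.
IRF1: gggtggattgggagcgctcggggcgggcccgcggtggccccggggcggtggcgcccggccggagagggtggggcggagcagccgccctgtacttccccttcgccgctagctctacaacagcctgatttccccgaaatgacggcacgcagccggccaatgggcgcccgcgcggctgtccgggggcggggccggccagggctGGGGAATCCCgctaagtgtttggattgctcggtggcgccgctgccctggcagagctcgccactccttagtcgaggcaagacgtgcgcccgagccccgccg
TNFAIP3: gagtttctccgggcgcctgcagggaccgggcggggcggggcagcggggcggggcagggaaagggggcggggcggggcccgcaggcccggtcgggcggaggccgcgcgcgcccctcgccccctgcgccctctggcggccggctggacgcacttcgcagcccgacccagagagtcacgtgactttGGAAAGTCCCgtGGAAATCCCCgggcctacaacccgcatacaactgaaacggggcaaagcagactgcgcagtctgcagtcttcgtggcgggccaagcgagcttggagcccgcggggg

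The kappaB letters were found in the windows of 19 of 29 NF-kB targets (65.5%), beside 6.44% of all windows and 5 mitosis genes. Of the genes lower without overlap, 13 of the 245 with a window held them (5.31%).

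Immediate early genes, which growth factors and stress switch on within minutes, were mixed, with 10 of 24 above 0, a median of -0.06 and 2 lower without overlap. JUNB, an AP-1 subunit, read 9.20, 9.32, 9.09, 9.24 and 9.20 in the mitosis-high arrays, against 9.56, 9.43, 9.78, 9.62 and 9.65 in the mitosis-low arrays. Every mitosis-low array lay above every mitosis-high array, and the difference of -0.40 (SE 0.07) had adjusted p = 0.0803. The arrays in between, at 9.47 to 9.69 for JUNB, lay with the mitosis-low arrays. ZFP36, which degrades messenger RNAs of cytokines, read 8.16, 8.22, 8.17, 8.26 and 8.12 in the mitosis-high arrays, against 8.38, 8.55, 8.40, 8.44 and 8.47 in the mitosis-low arrays, a difference of -0.27 (SE 0.05). Growth arrest genes were balanced, with 12 of 24 above 0. CDKN2B, the p15 inhibitor of CDK4 and CDK6, read 8.49, 8.56, 8.55, 8.53 and 8.51 in the mitosis-high arrays, against 8.70, 8.72, 8.78, 8.70 and 8.76 in the mitosis-low arrays, the 1 gene of that list without overlap. Of p53 targets, 6 of 19 lay above 0, with a median of -0.07 and 0 without overlap.

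For hepatocyte genes, 9 of 26 lay above 0, the median was -0.04, and 2 were lower without overlap. APOC3, an apolipoprotein, read 9.92, 10.24, 10.12, 10.03 and 9.90 in the mitosis-high arrays, against 10.51, 10.28, 10.35, 10.25 and 10.37 in the mitosis-low arrays, while albumin (ALB) differed by 0.04 (SE 0.05). Some of the largest single differences lay outside the lists, and the genes named here were chosen after their values were seen. CYP1A1, a target of the aryl hydrocarbon receptor, read 9.07, 9.26, 9.15, 8.75 and 8.70 in the mitosis-high arrays, against 9.70, 9.69, 9.54, 9.51 and 9.91 in the mitosis-low arrays. Its difference of -0.68 (SE 0.11) had adjusted p = 0.0803, and the arrays in between, at 9.60 to 9.99, lay as high as the mitosis-low ones. ELF3, an epithelial transcription factor, read 9.39, 9.69, 9.34, 9.48 and 9.51 in the mitosis-high arrays, against 10.01, 9.79, 9.97, 9.89 and 10.01 in the mitosis-low arrays, with the same adjusted p. The cytokine CSF1 differed by -0.50 (SE 0.11), DIO1, a deiodinase of thyroid hormone, by -0.52 (SE 0.10) and E-cadherin (CDH1) by -0.36 (SE 0.06), all lower without overlap.

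Higher genes outside the lists included HLTF, a DNA translocase of replication fork repair, which read 10.33, 10.18, 10.10, 10.19 and 10.20 in the mitosis-high arrays, against 9.87, 9.89, 9.96, 9.73 and 9.78 in the mitosis-low arrays. The difference was 0.35 (SE 0.06), with adjusted p = 0.0803. TBC1D8B, with a domain that acts on Rab proteins, differed by 0.41 (SE 0.06) with the same adjusted p. With the score as a covariate over all 14 low-DDIT4 arrays, 2 genes rose with the score, DLGAP5 and HLTF (adjusted p = 0.00796 for both), and HID1 fell (adjusted p = 0.0282). HID1 read 7.53, 7.71, 7.71, 7.72 and 7.74 in the mitosis-high arrays, against 7.85, 7.95, 7.79, 8.09 and 8.22 in the mitosis-low arrays.

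**Figure D3:**
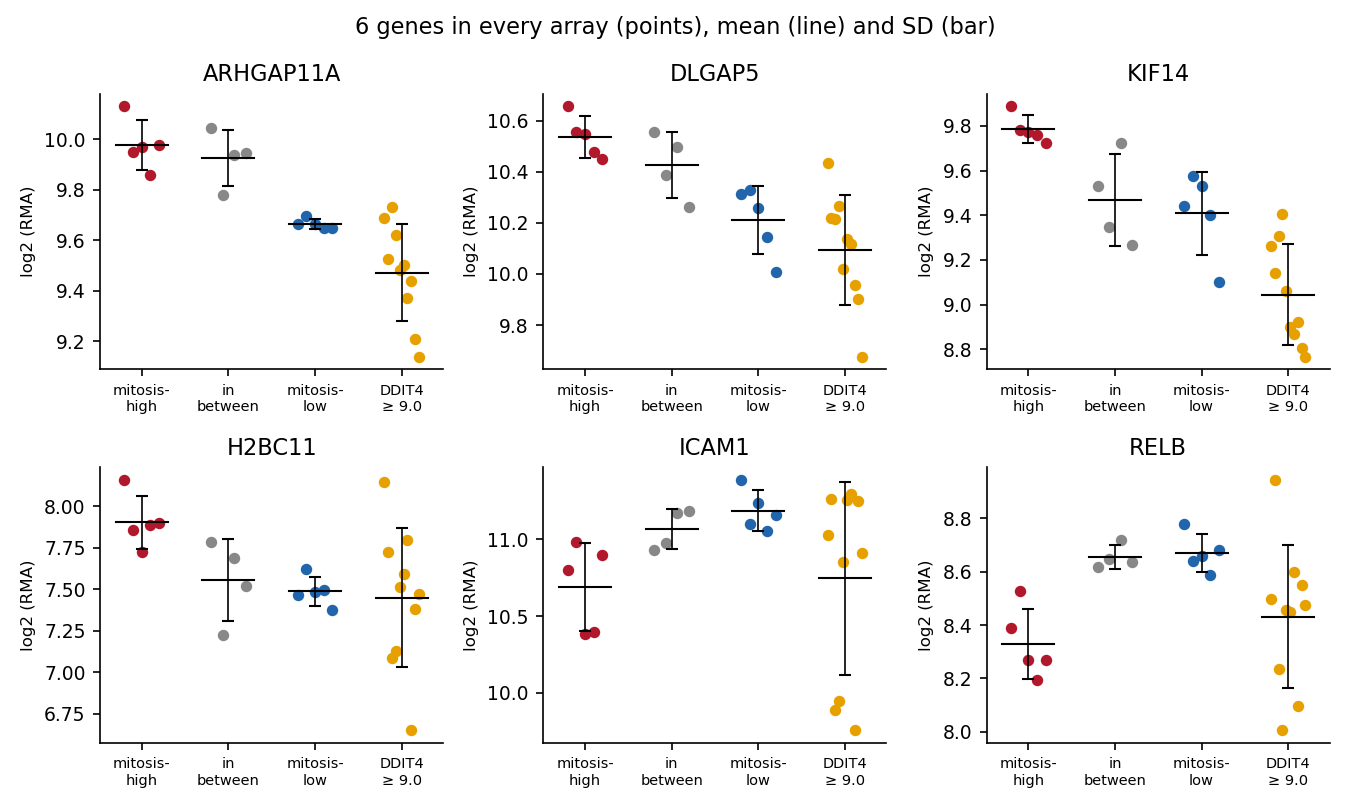
Log2 expression of 6 genes in every array (points), with the mean (line) and SD (bar), for the 5 mitosis-high, 4 in-between and 5 mitosis-low arrays and the 10 arrays with DDIT4 at 9.0 or above. ARHGAP11A, DLGAP5, KIF14 and H2BC11 lie higher and ICAM1 and RELB lower in mitosis-high than in mitosis-low arrays, each without overlap, and the vertical axes do not start at 0.

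The 24 h time point is the only one with arrays on both sides, 3 against 3. Within it, 127 of 146 mitosis genes lay above 0, 39 of 42 histones and 3 of 33 NF-kB targets, the last with a median of -0.25. No share over all genes is given for these 6 arrays, so the counts cannot be set against the shift of bright and dim genes. The difference at 24 h was 0.25 for KIF14, 0.31 for CENPE, 0.29 for ARHGAP11A and 0.30 for H2BC11. It was -0.49 for ICAM1, -0.34 for RELB, -0.38 for JUNB and -0.60 for CYP1A1. These values lay on the same side of 0 as with all 10 arrays, and the KIF14 value was over 1.5 times smaller. Among other genes described above, HID1 (-0.14), CDC25C (0.15), PTTG1 (0.15), ASPM (0.19) and FOXM1 (0.07) were also over 1.5 times smaller at 24 h. No gene passed limma's test in these 6 arrays, and each of the 8 genes had adjusted p = 0.859.

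The 10 arrays with DDIT4 at 9.0 or above, which the sorting did not use, gave a test in other samples. Their score ran from 9.98 to 10.50, and the slope of each gene against it, in log2 per log2 of score, was tested with limma. Of 18271 genes, 18 rose with the score (0.0985%) and 6 fell (0.0328%), with the largest adjusted p at 0.0458, and 4173 had an unadjusted p under 0.05. All 18 lay above 0 between the sides of the low-DDIT4 arrays, beside 43.4% of all genes and 58.2% of those with a mean of at least 9 log2. Some of the 18 lay close to 0 there, such as TRDMT1 at 0.04 (SE 0.07), CEP135 at 0.05 (SE 0.08) and SKAP2 at 0.07 (SE 0.07). Of the 18, 9 are in the mitosis lists, and 5 did not overlap between the sides, beside 1.36% of all genes higher without overlap. These calls were fragile: without DMSO 8 h replicate 4 there were 75 rising and 11 falling genes, without DMSO 8 h replicate 1 there were 43 and 20, and without any 1 of the other 8 arrays no gene was called. Nor was any called with time point or treatment label as a block, after re-centring the arrays, or without the 8 h arrays.

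The mitosis genes that rose with the score there were CDC25C, CENPL, KIF4A, ASPM, DLGAP5, NCAPG2, PBK, DEPDC1B and ARHGAP11A. Slopes were 1.24 (SE 0.17) for DLGAP5, 1.18 (SE 0.20) for ASPM, 1.08 (SE 0.18) for ARHGAP11A and 1.27 (SE 0.20) for CDC25C. DLGAP5 ran from 9.68 to 10.43 in these 10 arrays, with a median of 10.13, beside 10.45 to 10.66 in the mitosis-high arrays. The other 9 rising genes, named after their values were seen, included CETN3, a centrosome protein, at 1.34 (SE 0.20), CEP135, a centriole protein, at 1.18 (SE 0.19), and CDCA2, which guides a phosphatase to chromatin after anaphase, at 0.97 (SE 0.16). The remaining 6 were PRRG4, CCSER1, MIPOL1, TRDMT1, SKAP2 and TMEM60. The 6 falling genes were GPR179, EDAR, MSX2P1, MIR31, S100A6 and CYP1A2. All but MIR31 lay below 0 between the sides, beside 10346 of all 18271 genes. Within the 24 h arrays CEP135 (-0.08) and MIPOL1 (-0.02) lay below 0 and MSX2P1 (0.09) above 0.

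As a list, mitosis genes had slopes above 0 in 138 of 146, with a median of 0.57 log2 per log2 of score. Slopes were above 0 in 50.6% of all genes and in 76.1% of the genes with a mean of at least 9 log2. Mitosis genes belong to the same programme as the genes of the score, so their direction is not independent of it here either. Replication histones had slopes above 0 in 33 of 42, and H2BC11, at 0.59 (SE 0.70), did not pass. NF-kB targets had slopes above 0 in 18 of 33, with a median of 0.02. This count moved both ways with the setting, to 26 with treatment label as a block and to 5 with time point as a block and 8 without the 8 h arrays. With 1 array left out it ranged from 5 to 21, and it was 5 without silymarin 4 h replicate 1, 10 without DMSO 8 h replicate 4 or without DMSO 24 h replicate 3, and 11 without silymarin 8 h replicate 3. ICAM1 had a slope of -0.62 (SE 1.07) and RELB of 0.03 (SE 0.47), with standard errors larger than the slopes. Of genes named above as lower without overlap outside the NF-kB list, JUNB (0.52), ZFP36 (0.20), CDH1 (0.19) and ELF3 (0.14) had slopes above 0. CDKN2B (-0.02), APOC3 (-0.14), DIO1 (-0.16), CYP1A1 (-0.18), CSF1 (-0.46) and HID1 (-0.67) had slopes below 0. All but HID1 had a standard error larger than the slope, and none passed. Whether a slope differed between the 14 and the 10 arrays was tested as an interaction over all 24 arrays with limma. In this test 0 genes were called, and the smallest adjusted p was 0.99994. Of the 18271 genes, 534 had an unadjusted p under 0.05, a smaller share than the 0.05 that chance alone would give. None of the NF-kB targets was among them. The 534 included JUNB, ZFP36, CDH1 and HID1, at unadjusted p = 0.0186, 0.0289, 0.0362 and 0.0424 with limma. Of the genes called in the 10 arrays, they included MIR31, S100A6 and CEP135, at unadjusted p = 0.00041, 0.0123 and 0.0381 with limma. Since none passed after adjustment, none of these values shows a differing slope.

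Of the 248 genes higher without overlap between the sides, 232 had a slope above 0 in the 10 other arrays. That share was 50.6% over all genes and 76.1% over genes with a mean of at least 9 log2, to which 160 of the 248 belong. Of the 320 lower ones, 221 had a slope below 0, beside 9033 of all 18271 genes. Across the 18271 genes, slopes over the 14 and the 10 arrays correlated at 0.57 by Pearson's method and at 0.58 by Spearman's. Genes are not independent replicates, and both sets of slopes share the distribution of bright and dim genes described above. In the 10 arrays, too, the 3 with the highest score had array medians of 7.04 to 7.09 and the 3 with the lowest of 7.13 to 7.17. Re-centring these arrays to a common median left no gene called, and the part of the medians in the slopes was not tested further.

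**Figure D4:**
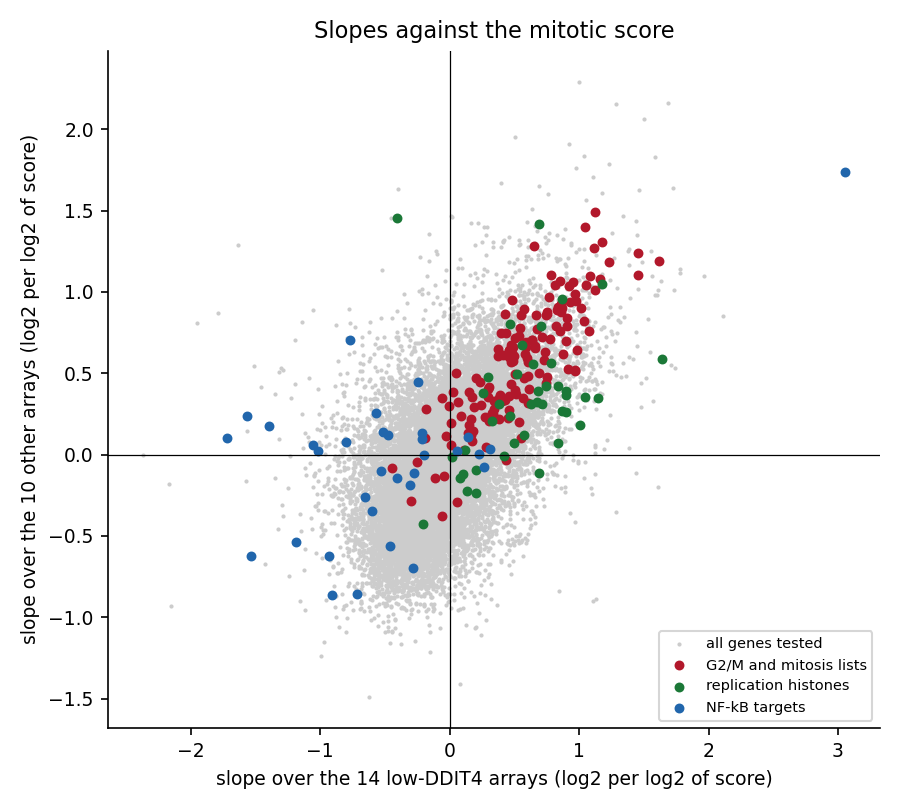
Slope of each gene against the mitotic score, in log2 per log2 of score, over the 14 low-DDIT4 arrays (horizontal) and over the 10 other arrays (vertical). Grey points are all 18271 genes, red the 146 mitosis genes, green the 42 replication histones and blue the 33 NF-kB targets. Mitosis genes lie mostly in the upper right and NF-kB targets mostly left of 0 but on both sides of 0 vertically, with IL18 the blue point at the far right.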

How the data were processed

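Total RNA of Huh7.5.1 cells was hybridised to Affymetrix arrays, 24 samples in all. The deposited values are on the log2 scale and, per the submitters' processing notes, come from RMA in oligo, with no version named. RMA includes quantile normalization, which makes array distributions alike. The array's genome build is not given in the sources used here. The values were used as deposited. Of 28869 probe sets, 19302 had 1 gene symbol, 1729 had several and 7838 were not listed in the annotation or had no symbol there. Only the first kind was used, and for the 757 genes with several probe sets the one with the highest mean was kept, which left 18274 genes. The smallest root mean square distance between 2 arrays was 0.131 log2, so no array was a copy of another.

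Differences and slopes were fitted with limma 3.58.1 (lmFit and eBayes) in R 4.3.3, without the 3 sorting genes. Tests were two-sided, with Benjamini-Hochberg adjustment over 18271 genes and a threshold of 0.05. The fits of the sides had 8 residual and 5.22 prior degrees of freedom. The arrays, the 32 gene lists (681 of 729 entries measured) and the tests were chosen with earlier results of these data known. The rule for named genes took the 15 largest changes in each direction among genes that passed without overlap, and in each list the 4 members with the smallest p. Since none passed, the list part of the rule supplied the names, and any other gene is marked as named with its values known. Alternatives covered normalization, dim genes, the model, blocks, the size of the sides and leaving out each array. The fits were checked on simulated data. Figures were drawn with matplotlib 3.10.9. The number of arrays limits the precision.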

Additional observations from a re-analysis of the deposited data

Results flagged for a closer look

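In 193 tests of single samples within groups of 4 to 10 arrays, 5 values stood apart from the rest, and chance flags about 1 in 20 such groups. Silymarin 4 h replicate 3 was the sample in 3 of them. Its mitotic score was 10.69 (10.685), with the nearest silymarin 4 h array at 10.50, its LBR value was 11.46, with the nearest mitosis-high array at 11.38 (11.378), and its HID1 value was 7.53, with the nearest at 7.71. CDH1 was 10.51 in DMSO 24 h replicate 1, with the nearest mitosis-high array at 10.37. CHORDC1, a partner of heat shock proteins, was 9.70 in silymarin 8 h replicate 2, with the nearest mitosis-low array at 10.03.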

How the results depend on the processing

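Between the sides, counts of called genes moved from 0 higher and 0 lower to 7 and 9 with repeated quantile normalization, 3 and 4 with limma's trend and robust settings, and 2 and 1 with either a fit of 3 groups over all 14 low-DDIT4 arrays or the score as a covariate. Leaving out 1 array at a time gave 0 higher throughout and 0 to 1 lower, the 1 without DMSO 24 h replicate 5. The other alternatives gave 0 and 0. Mitosis genes above 0 ranged from 127 (time point as a block, or 24 h arrays alone, which were added after seeing the data) to 140 of 146 and histones from 36 to 40 of 42. NF-kB targets above 0 ranged from 3 to 6 of 33, the 6 with the score as a covariate, with 1 exception. No paired analysis was possible because the sides share no replicate number. With a replicate block, the score over 14 arrays, added after seeing the data, gave 15 of 33 NF-kB targets above 0 and 36 histones. The slope of THBS1 was 0.46 log2 per log2 of score with this block and -0.74 (SE 0.64) without it. Same-numbered DMSO and silymarin arrays deviated together at r above 0.1 in 4 of 10 pairs (r from -0.14 to 0.43), so the numbers do not meet the bar for pairing. The 3 pairs that lie within 1 side were the highest, at 0.36 (4 h replicate 3, mitosis-high), 0.43 (8 h replicate 2, mitosis-low) and 0.42 (24 h replicate 2, mitosis-low). The fit treats these 6 arrays as independent, which can make its p-values too small.

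Over the 10 other arrays, the counts of 18 rising and 6 falling genes became 0 and 0 with re-centred arrays, with time point, treatment label or replicate number as a block, at an adjusted p under 0.01 and without the 8 h arrays, which was added after seeing the data. They became 5 and 0 with repeated quantile normalization, 54 and 10 without dim genes (mean under 7.11 log2), and 38 and 4 with trend and robust settings. Leaving out 1 array at a time gave 0 to 75 rising and 0 to 20 falling. NF-kB slopes above 0 numbered 26 with treatment label as a block, 5 with time point as a block, 11 with the replicate block, 8 without the 8 h arrays and 5 to 21 with 1 array left out. Mitosis slopes above 0 stayed between 130 and 140 of 146 under these alternatives. The cause of these shifts was not tested.

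With 5 arrays a side, no single-gene difference of the size printed passed the test, and dim genes carry signal near background. Mitotic level, replicate number and, outside 24 h, time point cannot be told apart between the sides.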

Other observations

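Genes of energy supply and protein care lay close to 0. Of 30 measured genes of the respiratory chain, 24 lay above 0, with a median of 0.04 log2, and 27 of 30 had slopes above 0 in the 10 other arrays. NDUFB6, a subunit of complex I, averaged 9.07 ± 0.05 in mitosis-high arrays and 8.88 ± 0.15 in mitosis-low arrays (SD, n = 5 each), a difference of 0.19 (SE 0.07), and COX7C, of complex IV, differed by 0.15 (SE 0.05). Of 14 cytosolic heat shock genes, 11 lay above 0, with a median of 0.07, led by CHORDC1 at 0.34 (SE 0.11) and FKBP4, a co-chaperone of HSP90, at 0.27 (SE 0.09). Proteasome genes lay above 0 in 16 of 28 between the sides, with a median of 0.01, and had slopes above 0 in 28 of 28 in the 10 other arrays. Slopes there were above 0 in 50.6% of all genes and in 76.1% of genes with a mean of at least 9 log2. Between the sides 58.2% of these brighter genes lay above 0. Ribosome biogenesis genes lay above 0 in 14 of 23, ER chaperones in 14 of 22 and cholesterol synthesis genes in 11 of 18. None of these genes passed limma's test.

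Metallothioneins, which bind zinc and copper, lay above 0 in 2 of 9, with a median of -0.13, and MT1M averaged 8.45 ± 0.42 in mitosis-high arrays and 9.04 ± 0.30 in mitosis-low arrays (SD, n = 5 each). Its 2 sides overlapped. In the 10 other arrays 6 of the 9 had slopes above 0. Targets of ATF4, the transcription factor of amino acid stress, lay above 0 in 25 of 41 between the sides, with a median of 0.02, and had slopes above 0 in 12 of 41 in the 10 other arrays. Interferon-stimulated genes lay above 0 in 8 of 24 and YAP and TGF-beta targets in 4 of 15. Marker lists of other cell types lay above 0 in 3 of 11 genes for endothelial cells, 3 of 12 for fibroblasts and stellate cells, 5 of 12 for leukocytes and 4 of 7 for bile duct cells, beside 43.4% of all genes tested.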
